A study of Rattus norvegicus with 50 samples.

Results

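Interferon-stimulated genes are the genes that cells switch on when they sense an interferon. Expression of 47 of them was followed in the lungs of rats exposed to titanium dioxide (TiO2) nanoparticles. They were listed by symbol for their known response to interferon, and spots whose gene name matched a symbol were taken. In all, 44 of the 47 were measured, out of 25208 genes tested. No spot carried the names Xaf1, Herc6 or Nlrc5. The members formed an antiviral arm of 31 genes (24 effectors, 4 sensors of nucleic acid and 3 transcription factors) and an arm of 13 genes of the interferon-gamma type (8 genes) or of antigen processing (5 genes). In all 10 groups the animals were male F344 rats, an inbred strain, with an age of 12 weeks in the labels. This cannot be the age at sampling in every group, since sampling ran to 180 days after exposure. Exposed rats inhaled an aerosol of TiO2 P25 nanoparticles at 10 mg/m3 by the nose only, for 6 hours per day and 5 days per week over 4 weeks, and control rats breathed air. Sampling took place when exposure ended (D0), then after 3 days (D3), 28 days (D28), 90 days (D90) and 180 days (D180), in 5 control and 5 exposed rats each time. RNA came from a whole accessory lobe, so a change in the number of cells of one type and a change in RNA per cell cannot be told apart.

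Type I interferons bind a receptor that activates kinases of the JAK family. The signal leads to a complex that holds STAT2 and IRF9 and binds the interferon-stimulated response element in promoters of antiviral genes. Interferon-gamma acts through another receptor and a different promoter element, the gamma-activated site, in genes such as Irf1, the guanylate-binding proteins and the immunoproteasome. The lists of genes induced by both kinds of interferon overlap, so the 2 arms are a division by known function and not by regulator.

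Each array was one rat. Levels are given as the log2 of the background-corrected Cy3 fluorescence after quantile normalization, in which 1 unit is a doubling, and a change is the difference between the mean levels of exposed and control rats with its standard error (SE). A member was called a differentially expressed gene (DEG) when limma gave a Benjamini-Hochberg adjusted p under 0.05 over all genes tested and the change was at least 1.5-fold, which is 0.585 on the log2 scale. The median signal of an array ran from 198 to 473 fluorescence units, and 68.7% to 84.5% of its gene spots were well above background. All 44 members were well above background on every array except Oas3 (49 of 50 arrays), Socs1 (2 to 5 arrays per group) and Ifit1 (2 arrays of exposed rats at D28 and 1 at D90). The alveolar genes Sftpc, Sftpb, Ager and Aqp5 were well above background on all 50 arrays. The arrays lay on 7 slides, with D0, D3 and D28 on 4 slides and D90 and D180 on the others, except replicate 1 of the exposed rats at D3. That array was on a slide without a D3 control.

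Promoters of 5 members are shown first, since they carry the binding sequences described above. They were taken by the number of days on which limma called a member, with ties settled by the change at D0. Lgals3bp was one of several antiviral members called on 1 day. In the other arm Irf8 was called on 1 day, and Socs1, called on none, had the largest change at D0 of the rest. Zbp1, chosen in the same way as Lgals3bp, is not shown. Rsad2 and Irf7 were added after their values were seen, because their response at D3 differed from that at D0. Each sequence is the RefSeq sequence of the 250 bases before the start site, 5′ to 3′ on the strand of the gene, in assembly GRCr8. Capitals mark matches on either strand to the core of the interferon-stimulated response element, searched as GAAA, any 2 bases and GAAA again, or to the gamma-activated site, searched as TTCNNNGAA. In Lgals3bp (chr10:104127849-104128098, minus strand), Rsad2 (chr6:48788121-48788370, minus strand) and Irf7 (chr1:205800024-205800273, minus strand) the capitals mark the response element. In Irf8 (chr19:65699034-65699283, plus strand) they mark gamma-activated sites. In Socs1 (chr10:5389324-5389573, plus strand) the first run is a gamma-activated site and the second is made of 2 overlapping response elements.
Lgals3bp: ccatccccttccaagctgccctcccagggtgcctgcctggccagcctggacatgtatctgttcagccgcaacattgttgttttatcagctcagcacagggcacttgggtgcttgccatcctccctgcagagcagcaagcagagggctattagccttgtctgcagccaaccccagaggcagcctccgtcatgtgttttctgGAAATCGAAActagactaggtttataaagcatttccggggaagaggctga
Rsad2: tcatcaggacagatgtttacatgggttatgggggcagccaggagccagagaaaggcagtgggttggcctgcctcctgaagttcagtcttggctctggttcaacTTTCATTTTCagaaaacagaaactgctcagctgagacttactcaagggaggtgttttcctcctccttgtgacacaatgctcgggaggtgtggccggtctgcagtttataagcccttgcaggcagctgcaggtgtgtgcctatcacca
Irf7: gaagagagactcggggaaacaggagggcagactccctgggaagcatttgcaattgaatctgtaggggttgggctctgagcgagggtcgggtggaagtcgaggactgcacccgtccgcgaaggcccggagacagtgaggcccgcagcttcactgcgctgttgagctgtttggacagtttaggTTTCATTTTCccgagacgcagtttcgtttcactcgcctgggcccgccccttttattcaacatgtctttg
Irf8: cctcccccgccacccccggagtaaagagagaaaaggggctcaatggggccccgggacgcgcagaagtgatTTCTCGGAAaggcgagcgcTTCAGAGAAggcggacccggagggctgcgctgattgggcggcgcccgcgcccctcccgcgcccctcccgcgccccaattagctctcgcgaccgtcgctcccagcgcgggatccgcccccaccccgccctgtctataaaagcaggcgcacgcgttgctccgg
Socs1: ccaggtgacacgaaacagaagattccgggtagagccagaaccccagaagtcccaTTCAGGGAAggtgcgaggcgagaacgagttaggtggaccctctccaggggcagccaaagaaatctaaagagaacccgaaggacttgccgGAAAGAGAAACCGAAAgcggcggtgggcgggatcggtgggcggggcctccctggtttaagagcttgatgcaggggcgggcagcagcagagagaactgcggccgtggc

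A RefSeq promoter window, running from 250 bases before the start site to 50 after it, was matched through the array's transcript identifiers for 34 of the 44 members measured. The response element was found in 14 of 21 antiviral windows (66.7%) and in 9 of 13 windows of the other arm (69.2%). Of all 27457 promoter windows of the same length, 3.82% held it. TTCNNNGAA was found in 4 of 21 antiviral windows (19%) and in 7 of 13 windows of the other arm (53.8%), against 8.68% of all windows. Among the 7 antiviral DEGs of D3 with a window, 5 held the response element, while Mx1 and Oasl did not, and none held TTCNNNGAA. Among the other 14 antiviral windows, 9 held the response element. The share with the response element was close in the antiviral members that were called at D3 (71.4%) and in those that were not (64.3%). A match is a description of these letters in this window, and the members were listed for their known response to interferon.

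The antiviral arm was over-expressed in part, and chiefly at D3. At D3, 10 of the 44 members were DEGs with a higher level in exposed rats (22.7%), against 1.98% of all genes tested, and all 10 were antiviral. None was under-expressed, against 1.51% of all genes. At D0, 1 member was a DEG, Irf8, against 2.77% of all genes higher and 1.51% lower. At D28, 1 member was a DEG, Ifit1, against 0.861% higher and 0.468% lower. At D90 and D180 limma called no member. The share of all genes called was 0.246% higher and 0.135% lower at D90, and 0.246% higher and 0.0793% lower at D180. At an unadjusted p under 0.05 there were 3 lower and 0 higher members at D90 (3.01% and 4.11% of all genes), and 1 lower and 0 higher at D180 (3.09% and 4.95%), and every alternative run gave a count of 0 DEGs on both days.

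**Figure D1:**
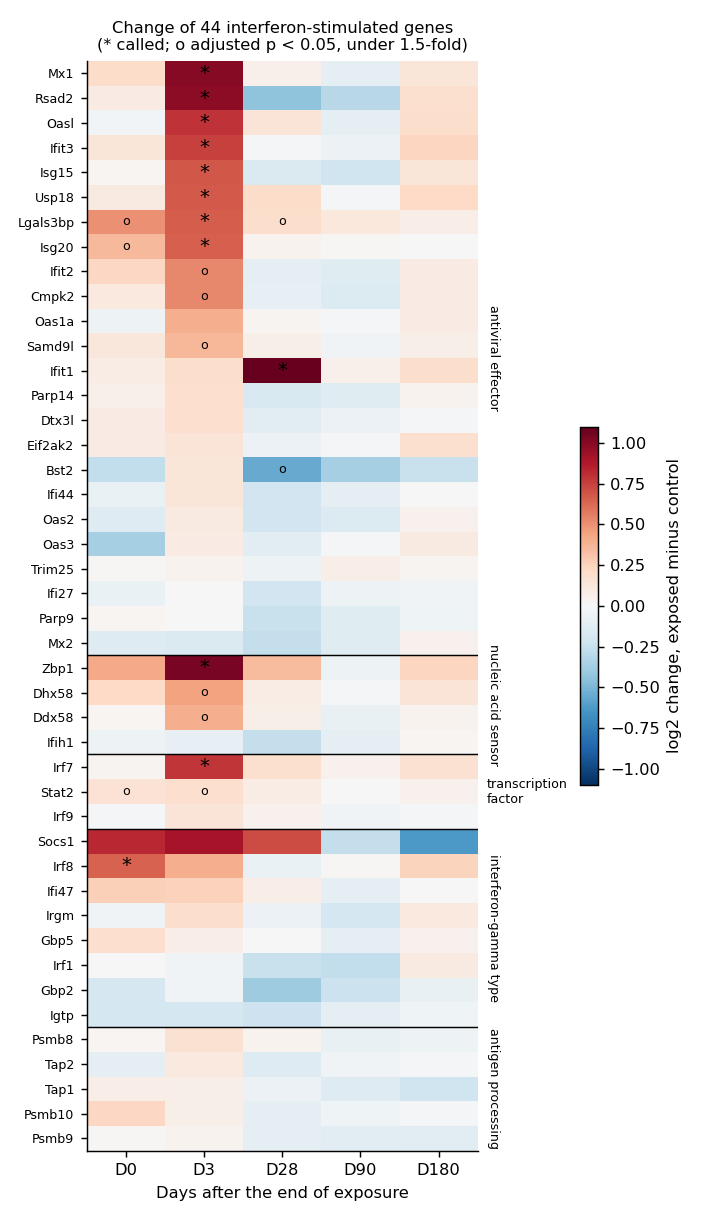
Log2 change (exposed minus control) of 44 interferon-stimulated genes, in rows grouped by role, at the 5 sampling times, in columns. Red is higher and blue lower in exposed rats. Of the 12 asterisks, which mark DEGs, 10 stand in the D3 column, and circles mark an adjusted p under 0.05 with a change under 1.5-fold.

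The median change of the antiviral members on the log2 scale was 0.05 at D0 and 0.37 at D3, then -0.06, -0.06 and 0.07 at D28, D90 and D180. For the arm of interferon-gamma type and antigen-processing genes it was 0.02, 0.07, -0.07, -0.10 and -0.01 at the same times. The median over all genes tested was between -0.01 and 0.00 at each time. At D3 the change was above 0 for 27 of 31 antiviral members and 10 of 13 members of the other arm, against 48.7% of all genes. At D90 it was above 0 for 7 of the 44 members, against 50.2% of all genes, with no change called. At D180, also with no change called, it was above 0 for 26 of 31 antiviral members and 5 of 13 of the other arm. At D0 these counts were 21 and 8, and at D28 14 and 3. The share of all genes is not given for D0, D28 and D180, and a one-sided direction was not particular to D3.

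Rats differed within a group, and the exposed rats at D3 did not all reach the same level. The mean deviation of the 31 antiviral members from their means over the 50 rats was 0.65, 0.42, 0.71, 0.21 and 0.62 in exposed replicates 1 to 5 at D3. In the D3 controls it was 0.31, 0.11, 0.07, 0.08 and 0.12. Exposed replicate 4 was the lowest of its group and lay below control replicate 1, and the other 4 exposed rats lay above all 5 controls. At D0 this mean was -0.06 ± 0.18 (SD, n = 5) in controls and 0.00 ± 0.099 in exposed rats, and the groups overlapped. At D3 it was 0.14 ± 0.098 and 0.52 ± 0.20. By D180 it was -0.13 ± 0.063 and -0.05 ± 0.051.

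**Figure D2:**
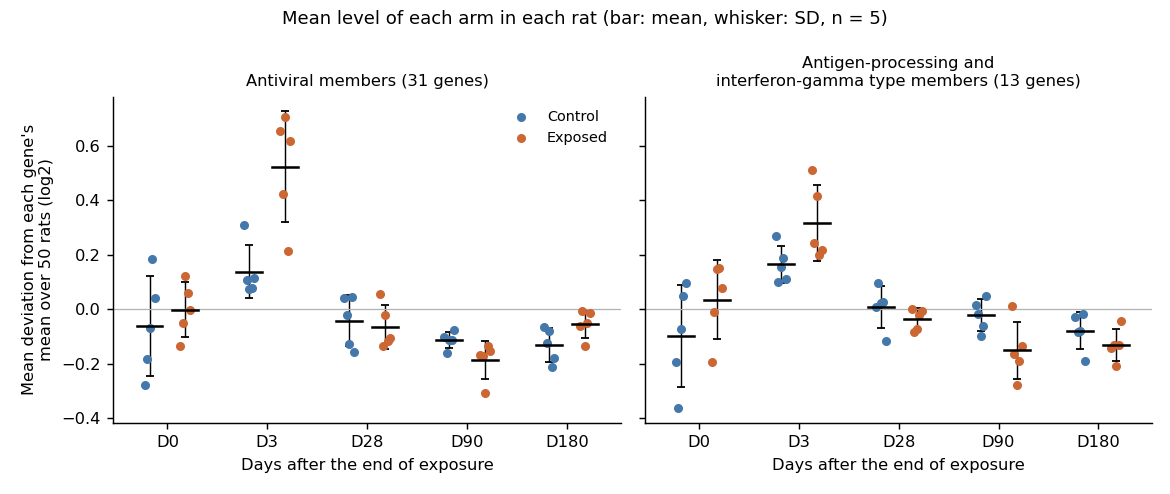
Mean deviation, in log2 units, of the antiviral members (left) and of the interferon-gamma type and antigen-processing members (right) from their means over 50 rats. Points are rats, bars are group means and whiskers are SD (n = 5) for control and exposed rats at each time after exposure. At D3 the antiviral means of exposed rats ran from 0.21 to 0.71, and those of controls from 0.07 to 0.31.

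Slides were compared within D3 for the antiviral arm. Exposed minus control was 0.63 on slide 1, 0.51 on slide 2, -0.10 on slide 3 and 0.35 on slide 4, with 1 exposed rat and 1 or 2 controls on each. Slide 3 held exposed replicate 4 and control replicate 1. Of the 10 DEGs, Zbp1, Rsad2, Ifit3, Lgals3bp and Isg20 were higher in the exposed rat on all 4 slides, and Mx1, Oasl, Irf7, Isg15 and Usp18 on 3, with differences of -0.24 to -0.18 on slide 3. With slide as a block in the fit, 8 of the 10 DEGs were called again, and Isg15 (0.55) and Isg20 (0.58) had an adjusted p of 0.0059 and 2.6e-08 with a change under 1.5-fold. When the fit held only the 10 arrays of D3, 5 remained called (Zbp1, Mx1, Rsad2, Lgals3bp and Isg20).

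Among the sensors, Zbp1, which binds nucleic acid in the Z form and can start cell death, was the DEG with the largest change of any member at D3. Its level in control rats was 7.97, 7.85, 7.73, 7.46 and 7.49, and in exposed rats 8.99, 8.73, 9.002, 7.99 and 8.98. All 5 exposed rats lay above all 5 controls, although replicate 4 exceeded the highest control by little. The change was 1.04 (SE 0.15), or 2.06-fold, with an adjusted p of 1.4e-06. Its probe lies at chr3:164081005-164081064 in assembly rn4, within the transcript that the array design names, and exons and untranslated regions in that assembly were not analysed here. At D0 the levels of Zbp1 were 6.68, 6.99, 7.06, 6.79 and 7.29 in controls and 7.02, 7.26, 7.82, 7.42 and 7.34 in exposed rats, which overlapped, with a change of 0.41 (SE 0.15, adjusted p = 0.056). The RNA helicase Ddx58, also called RIG-I, had a change of 0.40 (SE 0.086, adjusted p = 0.0010) at D3, under 1.5-fold, and all 5 exposed rats were above the controls. Dhx58, which modulates that helicase and is known as LGP2, had a change of 0.44 (adjusted p = 0.0074), also under 1.5-fold. Ifih1, the sensor of long double-stranded RNA known as MDA5, had a change of -0.09 (SE 0.17, adjusted p = 0.83).

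Of the 3 transcription factors, Irf7 was a DEG at D3. Irf7 is the factor that drives the later, amplified phase of interferon-alpha production. Its level was 13.17, 12.73, 12.87, 12.86 and 12.65 in controls and 14.03, 13.65, 13.91, 12.94 and 13.67 in exposed rats. Exposed replicate 4 lay within the control range and the other 4 rats above it. The change was 0.79 (SE 0.14), or 1.72-fold, with an adjusted p of 8.3e-05, from a probe at chr1:201456889-201456948 in rn4. Stat2, part of the complex activated by type I interferon, had a change of 0.18 (SE 0.054, adjusted p = 0.019), under 1.5-fold. Irf9, its DNA-binding partner, had a change of 0.14 (SE 0.10, adjusted p = 0.49).

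Antiviral effectors made up the other 8 DEGs of D3. Mx1, a dynamin-like GTPase that blocks incoming viruses, had levels of 13.42, 12.82, 12.93, 12.96 and 12.81 in controls and 14.34, 13.84, 14.44, 13.19 and 14.11 in exposed rats. Only exposed replicate 4 lay within the control range, whose upper end was control replicate 1. The change was 1.00 (SE 0.16), or 2.00-fold, with an adjusted p of 9.1e-06. Its probe lies at chr11:37438580-37438639 in rn4. Its relative Mx2, measured by a probe of its own, had a change of -0.16 (SE 0.13, adjusted p = 0.54).

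Rsad2, or viperin, makes a nucleotide analogue that ends viral RNA chains. Its level at D3 was 11.95, 11.80, 11.37, 11.58 and 11.75 in controls and 12.82, 12.35, 13.04, 12.12 and 13.02 in exposed rats, with no overlap. The change was 0.98 (SE 0.15), or 1.98-fold, with an adjusted p of 3.5e-06. The probes of Rsad2 (chr6:44100787-44100846) and Cmpk2 (chr6:44139218-44139277) are neighbours in rn4. Cmpk2, a nucleotide kinase that supplies the substrate of viperin, had a change of 0.52 (SE 0.11, adjusted p = 0.00075), under 1.5-fold.

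Some Ifit proteins, such as Ifit1, bind viral RNA that lacks host marks at its 5′ end. Ifit3 had levels of 10.40, 10.41, 10.50, 10.29 and 10.12 in D3 controls and 11.43, 11.24, 11.40, 10.45 and 10.96 in exposed rats, so that again replicate 4 alone overlapped the controls. The change was 0.75 (SE 0.14), or 1.69-fold, with an adjusted p of 0.00016. Ifit2 had a change of 0.53 (SE 0.13, adjusted p = 0.0050), under 1.5-fold. Ifit1 was not well above background on any array of D3.

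Isg15 encodes a ubiquitin-like protein that is joined to other proteins. Its level was 13.32, 12.86, 13.34, 13.12 and 12.86 in D3 controls and 14.19, 13.75, 14.17, 13.08 and 13.72 in exposed rats. Exposed replicate 4 lay among the controls and the other 4 above them. The change was 0.68 (SE 0.17), or 1.60-fold, with an adjusted p of 0.0062, and it was under 1.5-fold without exposed replicate 1 (0.58) or exposed replicate 3 (0.58). Usp18, the protease that removes Isg15 and dampens the type I receptor, had a change of 0.67 (SE 0.13), or 1.59-fold, with an adjusted p of 0.00020. Its levels were 10.35 to 10.86 in controls and 10.68 to 11.55 in exposed rats, and a second probe gave a change of 0.58 (adjusted p = 0.00060).

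Of the oligoadenylate synthetase family, 1 of 4 members measured was a DEG, the synthetase-like Oasl. Oasl had levels of 7.42, 7.08, 6.89, 7.43 and 6.59 in D3 controls and 7.95, 7.95, 8.26, 7.18 and 8.05 in exposed rats. The change was 0.79 (SE 0.21), or 1.73-fold, with an adjusted p of 0.0079. With normexp background correction it was 0.56, under 1.5-fold and not called. Oas1a had a change of 0.40 (SE 0.17, adjusted p = 0.14), with 3 exposed rats above all controls and replicate 4 below all of them. Oas2 (0.10, adjusted p = 0.73) and Oas3 (0.09, adjusted p = 0.87) had smaller changes, which the test did not call. Probes of one family can bind RNA of its closest relatives, and the array files do not say how far.

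The remaining DEGs of D3 were Lgals3bp and Isg20. Lgals3bp encodes a secreted glycoprotein that binds galectins. Its level in D3 controls was 13.89, 13.63, 13.74, 13.75 and 13.68, and in exposed rats 14.48, 14.38, 14.44, 14.23 and 14.48. No exposed rat overlapped the controls, and the change of 0.66 had the lowest SE of the 10 DEGs (0.058), at 1.58-fold and an adjusted p of 1.1e-11. Its probe lies at chr10:108388288-108388347 in rn4. Isg20, an exonuclease of single-stranded RNA, had levels of 11.71 to 12.02 in controls and 12.10 to 12.77 in exposed rats, which did not overlap. The change was 0.66 (SE 0.10), or 1.58-fold, with an adjusted p of 7.8e-06. In all, 5 members had all exposed rats above all controls at D3 (11.4%), against 3.35% of all genes.

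**Figure D3:**
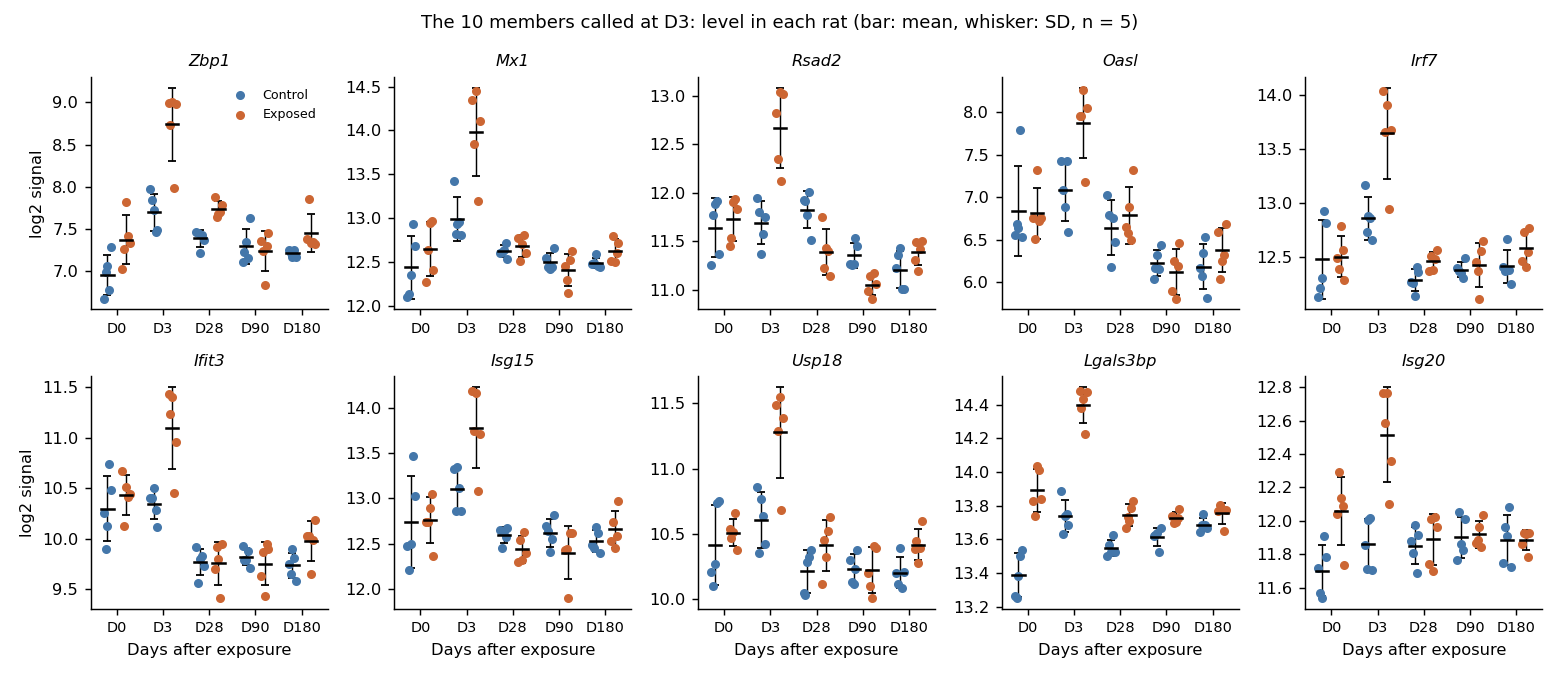
Log2 level in each control and exposed rat at the 5 sampling times for the 10 members called at D3. Points are rats, bars are group means and whiskers are SD (n = 5). Exposed replicate 4 was the lowest exposed rat at D3 in each of the 10 panels, and no panel was called at D0.

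Below the 1.5-fold limit, 6 more antiviral members had an adjusted p under 0.05 at D3. These were Ifit2, Cmpk2, Dhx58, Ddx58, Stat2 and Samd9l (0.37, adjusted p = 0.020), a protein that restricts viral translation. With the 10 DEGs they made 16 of 44 members (36.4%), against 4.89% of all genes. The other 15 antiviral members did not pass the test, among them Eif2ak2, the kinase PKR that stops translation (0.14, SE 0.11), and Bst2, the membrane tether of budding viruses (0.13, SE 0.10). Also in this group were Ifi27, Ifi44, Trim25, Parp9, Parp14 and Dtx3l, whose changes were at most 0.19.

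In the arm of interferon-gamma type and antigen-processing genes, limma called 0 of 13 members at D3, and 3 had an unadjusted p under 0.05 with a higher level, against 9.57% of all genes. These were Socs1 (0.90, SE 0.38, adjusted p = 0.14), a feedback inhibitor of JAK kinases, Irf8 (0.40, SE 0.16, adjusted p = 0.11), a factor of the myeloid lineages, and Ifi47 (0.25, SE 0.096, adjusted p = 0.091), a GTPase of the immunity-related family. Socs1 had 1 high exposed rat at D3, replicate 1 at 7.95, with the others at 5.95, 5.73, 5.36 and 5.09 and controls from 4.56 to 5.49. Irf1, the first factor in the response to interferon-gamma, had a change of -0.03 (SE 0.11). Gbp2, a guanylate-binding protein, had a change of -0.04 (SE 0.15). Igtp, another immunity-related GTPase, had a change of -0.20 (SE 0.19), and a dimmer probe of the same gene gave 0.07 (SE 0.17).

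The antigen-processing genes had changes between 0.04 and 0.17 at D3. Psmb8, a catalytic subunit of the immunoproteasome, had a change of 0.17 (SE 0.099, adjusted p = 0.33), and its subunits Psmb9 and Psmb10 had changes of 0.04 and 0.06. Tap1 and Tap2, which together carry peptides into the endoplasmic reticulum, had changes of 0.06 (SE 0.16) and 0.11 (SE 0.12). The upper 95% limits of these 5 changes ran from 0.26 to 0.38, so a change of 1.5-fold was outside each interval. Between D0 and D180 no member of antigen processing was a DEG. Their median change was 0.02 at D0 and 0.06 at D3, and -0.10, -0.08 and -0.06 at the later times.

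**Figure D4:**
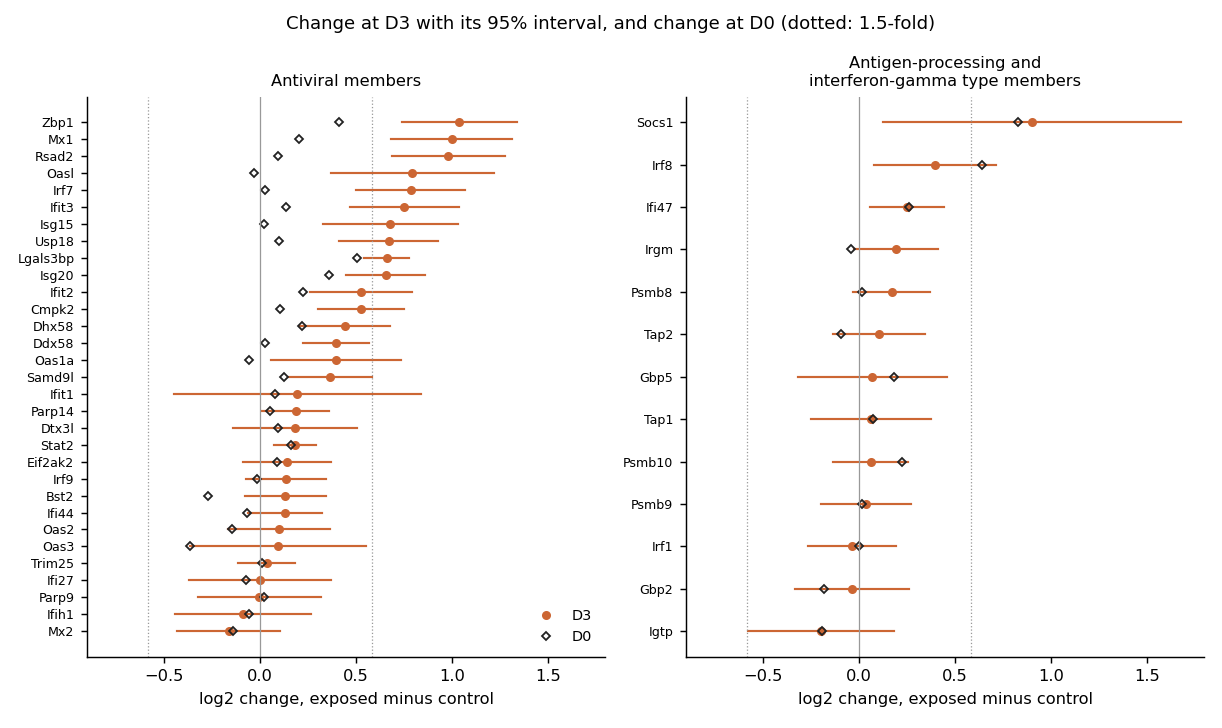
Log2 change (exposed minus control) of each member at D3 (filled points, with 95% intervals) and at D0 (open diamonds), for antiviral members (left) and for interferon-gamma type and antigen-processing members (right). Dotted lines mark 1.5-fold. Zbp1, Mx1 and Rsad2 stand at 1.04, 1.00 and 0.98 at D3 and at 0.41, 0.21 and 0.09 at D0.

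At D0 the only DEG was Irf8, whose probe lies at chr19:51116671-51116730 in rn4. Its level was 6.67, 6.86, 6.82, 6.18 and 6.74 in controls and 7.14, 7.30, 7.53, 7.09 and 7.43 in exposed rats, so the groups did not overlap. The change was 0.64 (SE 0.16), or 1.56-fold, with an adjusted p of 0.0032. The control mean at D0, 6.65, was the lowest of the 10 groups, whose other means ran from 6.87 to 7.60. The change was under 1.5-fold without control replicate 4 (0.52), with another background correction (0.40) and in the authors' own normalized values (0.44). Within each of the 4 slides of D0 it was higher in exposed rats, by 0.44 to 1.01.

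Also at D0, 3 antiviral members had an adjusted p under 0.05 with a change under 1.5-fold. Lgals3bp was 13.26, 13.25, 13.38, 13.50 and 13.54 in controls and 13.83, 13.74, 14.04, 14.01 and 13.84 in exposed rats, without overlap. Its change was 0.50 (SE 0.058), or 1.42-fold, with an adjusted p of 6.9e-09. Isg20 had a change of 0.36 (adjusted p = 0.012) and Stat2 of 0.16 (adjusted p = 0.039). With Irf8 these were 4 of 44 members (9.09%), against 6.93% of all genes, a share near the background. Socs1 was 4.78, 3.37, 4.76, 4.78 and 4.95 in D0 controls and 5.47, 4.98, 5.09, 5.98 and 5.26 in exposed rats. All exposed rats were above the controls, of which replicate 2 was far lower than the rest, and the change was 0.83 (SE 0.38, adjusted p = 0.17). Its probe was well above background on 2 of the 5 control arrays and 4 of the 5 exposed arrays of D0. With slide as a block the change of Socs1 was 0.88 (adjusted p = 0.019) and it was called. Oas3 was lower in all 5 exposed rats than in any control at D0, with a change of -0.36 (SE 0.23, adjusted p = 0.37). At D0, 3 of 44 members had all exposed rats above all controls and 1 had them below. The share of all genes at D0 is not given here, so these counts are not read as a result about the members.

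The levels of 9 of the 10 antiviral DEGs of D3 overlapped between the groups at D0, all but Lgals3bp, and 5 of the 9 are given here. Mx1 was 12.10 to 12.93 in controls and 12.28 to 12.96 in exposed rats. Rsad2 was 11.26 to 11.92 in controls and 11.45 to 11.94 in exposed rats. Isg15 ran from 12.21 to 13.47 in controls, its highest value being replicate 4, and from 12.36 to 13.05 in exposed rats. Irf7 (12.13 to 12.92 and 12.28 to 12.78) and Ifit3 (9.90 to 10.74 and 10.13 to 10.67) also overlapped. The changes of these 5 genes at D0 were between 0.02 and 0.21, and none had an adjusted p under 0.51.

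In an interaction test, effects are compared with their sign, so a smaller effect is a less positive or more negative one. The exposure effect at D3 was set against that at D0 in this way. It was larger at D3 for Rsad2, by 0.89 (SE 0.21, adjusted p = 0.017), and for Irf7, by 0.76 (SE 0.20, adjusted p = 0.049), 2 of 44 members, against 0.238% of all genes. No member was called with a smaller effect at D3 than at D0, and 12 antiviral members and none of the other arm had a larger effect at an unadjusted p under 0.05, against 4.15% of all genes. The share of all genes called with a smaller effect was 0.44%. Neither Rsad2 nor Irf7 was called on the arrays of D0 and D3 alone, and Rsad2 was not called with normexp background correction. The call of Irf7 was lost when any 1 of 14 of the 20 rats of the comparison was left out, and 6 members were called without exposed replicate 4 of D3, among them Mx1, Zbp1, Ifit3 and Usp18. For D28, D90 and D180 against D0, limma called no member. Lgals3bp alone had an adjusted p under 0.05, with a difference under 1.5-fold. Its effect was smaller than at D0 at D28 (-0.31, adjusted p = 0.025), D90 (-0.39, adjusted p = 0.0017) and D180 (-0.44, adjusted p = 0.00036). With slide as a block, Irf8 was called for D28 and D90 and Socs1 for D180, and with 75th percentile scaling added both were called for D90 and D180. At an unadjusted p under 0.05 the effect was smaller in 5 members and larger in 1 at D28 (6.73% and 6.35% of all genes), smaller in 7 and larger in 0 at D90 (6.36% and 6.44%), and smaller in 3 and larger in 0 at D180 (6.09% and 7.07%). The share of all genes called in these comparisons was 0.547% higher and 1.06% lower, 0.678% and 1.5%, and 0.904% and 1.34%.

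Against D3, the exposure effect was smaller in a group of antiviral members at each later time. These comparisons share the D3 rats and were chosen after the D3 result was seen. At D28 the effect was smaller in 6 members (13.6%), against 0.674% of all genes, led by Rsad2 (-1.42, SE 0.21, adjusted p = 1.2e-05) and Mx1 (-0.94), with Ifit3 (-0.77), Bst2 (-0.69), Isg20 (-0.62) and Cmpk2 (-0.62). Of these, Bst2 had a change of 0.13 at D3, not called, and was lower in exposed rats at D28, as described below. At D90 the effect was smaller in 10 members (22.7%), against 1.05% of all genes. These were Rsad2 (-1.29), Zbp1 (-1.10), Mx1 (-1.09), Isg15 (-0.90), Ifit3 (-0.82), Irf7 (-0.74), Usp18 (-0.68), Cmpk2 (-0.68), Ifit2 (-0.66) and Isg20 (-0.64). At D180 it was smaller in 5 members (11.4%), against 1.04% of all genes, namely Mx1 (-0.86), Rsad2 (-0.80), Zbp1 (-0.80), Isg20 (-0.66) and Lgals3bp (-0.59). All were antiviral. No member was called with a larger effect than at D3, against 0.603%, 0.877% and 1.15% of all genes at the 3 times. Without exposed replicate 4 of D3 the counts were 11, 12 and 8, and without exposed replicate 1 or 3 of D3 they were 3, 5 and 4.

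After D3 the levels of the DEGs of D3 mostly overlapped between groups, and limma called none of them. Mx1 lay between 12.15 and 12.81 in all 30 rats of D28, D90 and D180. Rsad2 at D28 was 11.93, 11.92, 11.77, 12.01 and 11.51 in controls and 11.75, 11.22, 11.43, 11.40 and 11.14 in exposed rats, with a change of -0.44 (SE 0.15, adjusted p = 0.084). At D90 it was 11.27, 11.26, 11.27, 11.53 and 11.45 in controls and 10.98, 11.14, 10.91, 11.18 and 11.06 in exposed rats, which did not overlap, with a change of -0.30 (adjusted p = 0.67). At D180 the values of Rsad2 overlapped (11.01 to 11.43 and 11.20 to 11.51). Lgals3bp remained above all controls in all 5 exposed rats at D28, with a change of 0.20 (adjusted p = 0.045), and at D90, with a change of 0.12 (adjusted p = 0.71). Zbp1 was above all controls in all 5 exposed rats at D28 (0.35, adjusted p = 0.21) and at D180 (0.24, adjusted p = 0.81), without passing the test. Of the 44 members, 2 at D28, 1 at D90 and 1 at D180 had all exposed rats above all controls. All exposed rats lay below all controls in 2, 2 and 0. The share of all genes is given here only for upward separation at D3 (3.35%). It does not serve for other days or for the downward direction, so separation alone is not read as a lasting effect.

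Bst2 was lower in exposed rats at D28, by less than 1.5-fold. Its level was 15.45, 15.44, 15.30, 15.21 and 15.07 in controls and 14.96, 14.69, 14.75, 14.67 and 14.63 in exposed rats, without overlap. The change was -0.56 (SE 0.10, adjusted p = 0.00053), and it passed 1.5-fold without control replicate 5 or exposed replicate 1. At D90 it was 15.16 to 15.43 in controls and 14.74 to 15.14 in exposed rats, with a change of -0.37 (adjusted p = 0.081). At D180 the change was -0.24 (adjusted p = 0.46), with 4 exposed rats below all controls. At D0 it was -0.27 (adjusted p = 0.083), and at D3 0.13 (adjusted p = 0.51).

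Ifit1, called at D28, rested on dim signals. Its level was 3.04, 2.71, 2.93, 2.60 and 2.52 in D28 controls, none of them well above background, and 5.56, 4.14, 3.69, 3.16 and 2.74 in exposed rats, of which 2 were. The change was 1.096 (SE 0.32, adjusted p = 0.038). Since no control array measured this probe well above background, the control mean is not a measured level of Ifit1. The call was lost when any 1 of 7 of the 10 rats was left out, with a change of 0.67 (adjusted p = 0.14) without exposed replicate 1, and under 75th percentile scaling, another background correction or the authors' values it was 0.83, 0.29 and 0.32, not called.

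**Figure D5:**
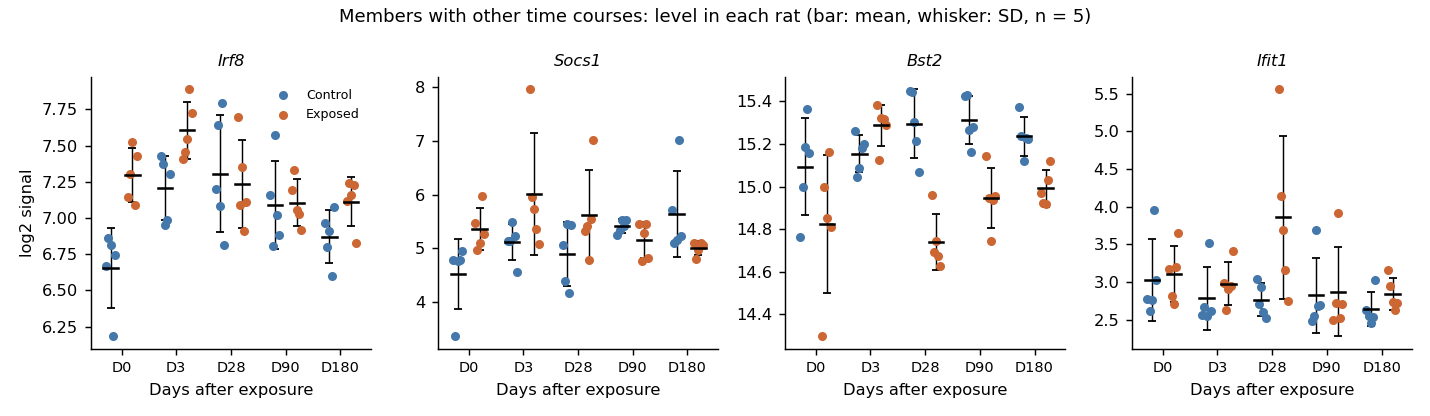
Log2 level of Irf8, Socs1, Bst2 and Ifit1 in each rat at the 5 sampling times, for control and exposed rats, with group means as bars and SD as whiskers (n = 5). Irf8 in D0 controls had a mean of 6.65, Bst2 at D28 lay below 15.00 in all 5 exposed rats and above it in all controls, and Ifit1 reached 5.56 in 1 exposed rat at D28.

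Another 7 members followed at every time were not DEGs at any of them. Irf1 had changes of 0.00, -0.03, -0.25, -0.27 and 0.10 from D0 to D180, Gbp2 of -0.18, -0.04, -0.39, -0.23 and -0.08, and Igtp of -0.19, -0.20, -0.23, -0.10 and -0.04. Psmb8 had changes of 0.02, 0.17, 0.04, -0.08 and -0.06, and Tap1 of 0.07, 0.06, -0.06, -0.14 and -0.22. Ddx58 had 0.02, 0.40, 0.06, -0.08 and 0.04, and Oas1a -0.05, 0.40, 0.03, -0.01 and 0.09.

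Control rats also differed between days, in comparisons that share their control rats with those above. Age at sampling cannot be told apart from day in these comparisons. In controls, Zbp1 was higher at D3 than at D0 by 0.74 (SE 0.15, adjusted p = 0.00061) in all 5 rats, the only member called, against 1.52% of all genes higher and 0.813% lower. It was not called with another background correction (0.49) or in the authors' values (0.54). In all, 9 members had an adjusted p under 0.05 with a higher level (20.5%, against 3.93% of all genes), including Mx1 (0.55), Irf8 (0.55), Ifi47 (0.42), Lgals3bp (0.35) and Psmb10 (0.32). The median difference between D3 and D0 controls was 0.20 for the antiviral arm and 0.23 for the other arm. At D28, Irf8 was higher than at D0 by 0.65 (adjusted p = 0.0054), against 1.54% of all genes higher and 0.944% lower. It was under 1.5-fold with another background correction (0.45), in the authors' values (0.45), with slide as a block (0.56), without control replicate 4 of D0 (0.53), or without replicate 2 (0.57) or 4 (0.53) of D28. Between D180 and D90 controls limma called no member, and none had an unadjusted p under 0.05, while 0.00397% of all genes were called higher and 0.0159% lower.

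Upstream of these genes, no interferon gene that was tested was called higher. Ifna11, Ifnl1 and Ifnl3 had no spot of that name, Ifne was not tested, and several signals were dim, so a rise could be missed. Of 7 type I interferon genes tested, 0 were called higher on any day, and Ifna2 was lower at D3 (-0.79, SE 0.26, adjusted p = 0.039), with a signal well above background on 16 of 50 arrays. Ifnb1 was well above background on 3 arrays and Ifng, the 1 tested gene of types II and III, on 24 arrays. None of the 6 receptor chains was called. Of 8 genes of JAK-STAT signalling, Socs3, an inhibitor of that pathway, was a DEG at D3 (0.73, SE 0.17, adjusted p = 0.0030). Of 13 genes that act in the induction of interferon, 3 were over-expressed at D0 and 2 at D3, against 2.77% and 1.98% of all genes. At D0 they were Tmem173, the adaptor STING (1.33, adjusted p = 8.3e-12), Mb21d1, the DNA sensor cGAS (0.71, adjusted p = 2.8e-06), and Irf5 (0.63, adjusted p = 3.2e-08). At D3 they were Tmem173 (1.27, adjusted p = 5.4e-11) and Ikbke (0.63, adjusted p = 0.00012). None was called at D28 or later.

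Of 52 other genes known to be induced by interferons, 4 were over-expressed at D0, 4 at D3 and none later, and none was lower. Of all genes tested, 2.77% were called higher at D0 and 1.98% at D3. The genes called in this list are named here. They were led at D3 by Cxcl11 (2.72, SE 0.31) and Cxcl10 (2.29, SE 0.29), chemokines for T cells, with Slfn3 (0.76) and Ifi30 (0.59), and at D0 by Cxcl11 (1.83) and Cxcl10 (1.19), with Ifi30 (0.73) and Apobec1 (0.66). The median change of this list was 0.16 at D3 and 0.10 at D0.

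Some markers of other cell types were also called on the same days. Of all genes, 2.77% were called higher at D0 and 1.98% at D3, and 1.51% lower on each day. At D3, 3 of 8 neutrophil markers were over-expressed (Cd177, S100a9 and S100a8), and the mean deviation of that list was -0.51 to 0.13 in controls and 0.55 to 0.81 in exposed rats. At D0, 4 of the 8 were over-expressed. Of 6 markers of plasmacytoid dendritic cells, which can release large amounts of type I interferon, Siglech alone was over-expressed, at D0 (1.57) and D3 (0.87), and the D3 list means overlapped, from -0.14 to 0.32 in controls and 0.11 to 0.29 in exposed rats. Of 5 markers of conventional dendritic cells, Clec9a was over-expressed at D0 and D3. Of 6 monocyte markers, 2 rose and 1 fell at D0, and 1 rose and 1 fell at D3. At D0, 2 of 8 T cell markers (Cd3g and Cd5) and 1 of 5 B cell markers (Cd79b) were over-expressed, and at D3 1 B cell marker (Blk). No natural killer cell marker was called at any time, and of 8 alveolar macrophage markers Chi3l1 was higher at all 5 times. Of 5 endothelial markers, 2 fell at D0, and at D3 the list mean was -0.11 to 0.11 in controls and -0.43 to -0.31 in exposed rats. Of the epithelial markers, Cyp2f4 was lower at D0 and Hopx at D3. The part of these cell types in the results above was not tested.

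Genes of the circadian clock also differed between exposed and control rats. Dbp was lower in exposed rats at D0 (-1.95) and D3 (-2.49) and higher at D28 (3.27), D90 (3.36) and D180 (2.97). Nr1d1 (-3.27, -1.31, 3.04, 2.22 and 3.03) followed the same signs and Arntl (1.26, 1.67, -1.47, -1.58 and -1.09) the opposite ones. Whether time of sampling had a part in the members' changes was not tested.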

How the data were processed

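RNA of the accessory lung lobe of 50 rats was hybridised by the authors to 1-colour Agilent 8x60K rat arrays. Per the file headers, each array was read with Agilent Feature Extraction 11.0.1.1, and the deposited scanner files give a background-corrected Cy3 intensity per spot. The deposited series table holds the authors' quantile-normalized median intensity without background subtraction, used as an alternative. The study's methods name a batch correction whose terms are not given in the sources used here.

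From the deposited intensities, the log2 of the processed signal was taken. Outlier spots were left out, spots of a probe averaged and arrays quantile normalized. Probes were kept (29549) if 5 or more arrays gave a signal over the 95th percentile of negative control spots, with the brightest probe for each of 25208 genes. A model with 10 group means was fitted in limma 3.58.1 (R 4.3.3), moderated across genes, with Benjamini-Hochberg adjustment. The number of arrays, 5 per group, limits the precision. The script was tested on simulated data. Replicate numbers do not name the same animal, and the deviations of same-numbered rats correlated between -0.34 and 0.45, with 8 of 25 pairs of same-numbered rats above 0.1, so rats were not paired.

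The members, arms and lists were chosen with earlier results of these data known. All called members were named, 14 were listed to be followed at each time (Nlrc5 had no probe), and levels per rat were given for those of them called on any day and for the members of each arm with the largest change at D0. Alternatives were normexp background correction, 75th percentile scaling, no or a stricter filter on dim probes, the mean of a gene's probes, a replicate block, slide as a block, the authors' values, flagged spots kept, no fold limit, the arrays of the compared days alone, and each rat left out. Comparisons of later days with D3, and slide as a block with 75th percentile scaling, were chosen after seeing the data.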

Additional observations from a re-analysis of the deposited data

Results flagged for a closer look

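Single rats stood apart from the other 4 of their group, by a gap of more than 0.71 of the group's range, in 17 of 240 groups tested (7.08%), over 22 genes and the 2 arm means. Chance flags about 1 in 20 groups. At D3, exposed replicate 4 was low for Zbp1 (7.99) and Oasl (7.18), and control replicate 1 was high for Mx1 (13.42) and for the mean deviation of the antiviral arm (0.31). Exposed replicate 3 of D90 was low for Isg15 (11.90) and for the antiviral mean (-0.31), and high for Ifit1 (3.92). The other low values were those of Irf1 in control replicate 1 of D0 (14.07), Ddx58 in exposed replicate 2 of D28 (9.44), Igtp in control replicate 5 of D180 (16.28) and Lgals3bp in exposed replicate 4 of D180 (13.65). The other high values were those of Oasl in control replicate 4 of D0 (7.79), Ifit1 in control replicate 4 of D3 (3.52) and control replicate 3 of D90 (3.69), Mx1 in control replicate 3 of D180 (12.59), Ddx58 in exposed replicate 2 of D180 (9.64) and Zbp1 in exposed replicate 2 of D180 (7.86). The Ifit1 values of these arrays at D3 and of the control at D90 were not well above background.

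In the comparisons that follow, a smaller effect is a less positive or more negative one. The exposure effect differed between times, by the interaction term of the limma fit, in the antiviral members already named. Against D0, it was larger at D3 for Rsad2 (0.89) and Irf7 (0.76). Against D3, it was smaller at D28 for Rsad2 (-1.42), Mx1 (-0.94), Ifit3 (-0.77), Bst2 (-0.69), Isg20 (-0.62) and Cmpk2 (-0.62). At D90 it was smaller than at D3 for Rsad2 (-1.29), Zbp1 (-1.10), Mx1 (-1.09), Isg15 (-0.90), Ifit3 (-0.82), Irf7 (-0.74), Usp18 (-0.68), Cmpk2 (-0.68), Ifit2 (-0.66) and Isg20 (-0.64). At D180 it was smaller than at D3 for Mx1 (-0.86), Rsad2 (-0.80), Zbp1 (-0.80), Isg20 (-0.66) and Lgals3bp (-0.59). These comparisons share the rats of D3.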

How the results depend on the processing

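The median changes of both arms were recomputed 190 times. Each moved by less than the SD of the arm mean between rats of a group, pooled over exposed and control rats. That SD is wider than the standard error of a difference between groups of 5 rats, so it is a lenient limit. Over the alternatives that kept all rats the antiviral median at D3 ran from 0.23 to 0.39, and with 1 rat left out from 0.27 to 0.44. Single members were followed only in comparisons that called them, with a few others named above, so their direction could hardly change. For these, 513 of 513 values under the alternatives and 720 of 720 with a rat left out kept their direction. Of these values 460 and 635 kept their call, with 51 and 81 called no longer and 2 and 4 newly called. The number of members called at D0 (1) was 0 with normexp and in the authors' values, 2 with slide as a block with either scaling, and 4 with no fold limit. At D3 (10) it was 16 with no fold limit, 9 with normexp, 8 with slide as a block and 5 on that day's arrays alone, where the fit holds fewer rats. At D28 (1) it was 0 under 75th percentile scaling, normexp, the authors' values, the stricter filter, the replicate block, slide as a block with 75th percentile scaling and that day's arrays alone, and 3 with no fold limit. At D90 and D180 it was 0 throughout. The count for D3 against D0 (2) was 1 with normexp, no filter on dim probes, the mean of probes or the replicate block, and 0 on the arrays of those days alone. For D28, D90 and D180 against D0 (0 each) it was 1 with slide as a block or no fold limit, and for D28 also 1 under 75th percentile scaling. With slide as a block and 75th percentile scaling it was 1 for D28 and 2 for D90 and D180. Against D3, the counts for D28 (6), D90 (10) and D180 (5) were 2, 4 and 2 on the arrays of those days alone, and D180 gave 3 with slide as a block with either scaling. In controls, the count for D3 against D0 (1) was 0 with normexp and in the authors' values and 9 with no fold limit, and that for D28 against D0 (1) was 0 with normexp, the authors' values, slide as a block and the arrays of those days alone, and 2 with no fold limit. Between control rats of D180 and D90 it was 0 throughout. The causes of these changes were not tested. The replicate block gave 10 calls at D3 and 9 for D90 against D3, without Ifit2, and changed no other count than those given.

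With each rat left out, the count ran from 0 to 1 at D0, 9 to 12 at D3 (12 without exposed replicate 4), 0 to 1 at D28, and was 0 at D90 and D180. It ran from 1 to 6 for D3 against D0 (6 without exposed replicate 4 of D3), 0 to 1 for D28 against D0 (Irf8 without control replicate 5 or exposed replicate 1 of D28), and was 0 for D90 and D180 against D0. Against D3 it ran from 3 to 11 for D28, 5 to 12 for D90 and 4 to 8 for D180. In controls it ran from 1 to 2 for D3 against D0, 0 to 2 for D28 against D0, and was 0 for D180 against D90. Signal over background limits Ifit1 and Socs1.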

Other observations

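Members also varied among rats of the same group, in part together. After group means were removed, the median Pearson correlation over pairs of members across the 50 arrays was 0.33 within the antiviral arm, 0.22 within the other arm and 0.25 between them, and the 2 arm means correlated at 0.68. Single pairs ran from -0.76 to 0.89, from -0.69 to 0.88 and from -0.83 to 0.93, in the same order. With slide also removed the medians were 0.47, 0.46 and 0.36. No value for pairs of other genes is given here, so joint variation is not read as particular to the members. The points share slides and labelling, and these values are descriptions without a test. With group and slide removed, Irf8 (0.08), Socs1 (0.06) and Ifit1 (0.01) varied least with the antiviral mean.

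The genes outside the list that varied most like the antiviral mean across the 50 arrays, with group means removed, were Cxcl10 (0.74), Phf11 (0.73), Ifi27l2b (0.72) and LOC100366216 (0.71), beside a probe named only by a transcript identifier. At D3, Ifi27l2b rose by 1.01 (limma adjusted p = 7.5e-09) and LOC100366216 by 0.68 (adjusted p = 8.8e-05), and Phf11 had a change of 0.49 (adjusted p = 0.0011), under 1.5-fold. Those most like the mean of the other arm were Uba7 (0.78), which encodes the enzyme that activates Isg15, RGD1309362 (0.73), LOC100911030 (0.71) and Ubd (0.65), a ubiquitin-like protein, beside a further probe named by a transcript identifier. Of these, Ubd was called at D3, with a change of 1.05 (adjusted p = 2.9e-06).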
